A study of Mus musculus with 335 samples.

Results

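The 8 genes described here are the 3 transforming growth factor beta (TGF-beta) ligand genes, Tgfb1, Tgfb2 and Tgfb3, the TGF-beta-induced matrix gene Tgfbi, and 4 target genes of the transcriptional coactivator YAP, namely Ctgf, Cyr61, Ankrd1 and Amotl2. They were found by symbol in the deposited expression table, where all 8 of 8 symbols had a row among the 20188 genes listed. Bulk RNA-seq covered 335 libraries, in 61 groups, of mouse mammary cancers that spread to other organs, collected to compare metastases with the primary tumours of the same animals, both within models and across them. Repeat libraries of a tissue in the same animal were combined as their mean, which left 281 profiles, and n below counts animals (for cultured cells, libraries). Values are RPKM, read numbers scaled to transcript length and library size, so that levels can also be compared between genes.

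The allograft models were cell lines injected into mice, and the lines differ in mouse strain and driver as labelled. 4T1, 4T07, 67NR, D2A1, EMT6, F311 and TSAE1 carry the strain entry BALB and an unknown driver, E0771 has BL6 and an unknown driver, and R3T has 129S1J and an unknown driver. The driver is cMyc in 6DT1, cMYC with VEGF in Mvt1, PyMT (polyoma middle T) in Met1 and Pik3ca in HRM1, all with the strain entry FVB, apart from 1 cultured 6DT1 library entered as BALB. M6 carries SV40T, and its strain entry is REAR for the orthotopic samples, FVB for the intracardiac samples and BALB for the cultured cells. The autochthonous (transgenic) models were PyMT mice entered as FVB, BL6, BL10, CAST or MOLF, MMTV-Myc and MMTV-Neu mice entered as FVB, and C3Tag mice with SV40T, for which the strain entries read FVB, FVG and C3Tag. MMTV is the mammary tumour virus promoter, which directs a transgene mainly to mammary epithelium. Lines were injected orthotopically into the mammary gland, into the tail vein or into the heart. Healthy lung and liver came from wild-type FVB mice, and adjacent lung, liver and spleen from tumour-bearing mice. All samples were untreated, and the labels give no age.

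TGF-beta ligands are secreted as latent complexes held in the matrix by latent TGF-beta binding proteins, and integrins or proteases release them. The free ligand brings together type II and type I receptor kinases, which phosphorylate Smad2 and Smad3. These enter the nucleus with Smad4 and act on target genes, while the inhibitory Smad7 limits the signal. In mammary tumours the pathway is known both for growth arrest of early epithelial lesions and for invasion, matrix production and immune suppression later on. YAP and its paralog TAZ (gene Wwtr1) are held in the cytoplasm when the Hippo kinases, encoded by Stk3, Stk4, Lats1 and Lats2, are active. Freed by stiff matrix, cell spreading or low cell density, they enter the nucleus and bind the TEAD DNA-binding proteins. Ctgf and Cyr61 encode secreted matricellular proteins of the CCN family, Ankrd1 a nuclear ankyrin-repeat protein, and Amotl2 a junctional scaffold that also restrains YAP. Ctgf is a known target of SMAD proteins too, and Tgfbi encodes a secreted adhesion protein of the extracellular matrix.

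TEAD proteins bind the core GGAATG, and the upstream sequences of the members that hold it are shown because YAP acts on target genes through TEAD. RefSeq promoter entries (build GRCm38.p6) matched 6 of the 8 members, and none was matched for Ctgf or Tgfb3. In the 250 bases before the start site, searched on both strands, the core occurred once each in Cyr61 and Amotl2 and at 2 places in Ankrd1, and in none of Tgfb1, Tgfb2 and Tgfbi. Of 32851 promoters of the same length, 12.6% held it. The AP-1 motif TGAGTCA (4.46% of promoters) and the SMAD palindrome GTCTAGAC (0.167%) occurred in none of the 6. Capitals below mark the core or, where they read CATTCC, the core on the other strand. The Cyr61 window (listed as Ccn1) is chromosome 3, 145649986 to 145650235, minus strand, with the core 103 to 98 bases before the start. The Ankrd1 window is chromosome 19, 36119845 to 36120094, minus strand, with cores 210 to 205 and 123 to 118 bases before the start. The Amotl2 window is chromosome 9, 102717554 to 102717803, plus strand, with the core 65 to 60 bases before the start. The expression table was made on another build, mm9, and coordinates of the 2 builds were not combined.
Cyr61: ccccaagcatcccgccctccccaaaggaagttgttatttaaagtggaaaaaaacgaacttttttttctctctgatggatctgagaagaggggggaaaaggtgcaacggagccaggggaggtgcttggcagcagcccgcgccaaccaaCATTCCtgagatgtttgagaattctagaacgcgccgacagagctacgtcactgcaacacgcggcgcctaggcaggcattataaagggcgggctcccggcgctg
Ankrd1: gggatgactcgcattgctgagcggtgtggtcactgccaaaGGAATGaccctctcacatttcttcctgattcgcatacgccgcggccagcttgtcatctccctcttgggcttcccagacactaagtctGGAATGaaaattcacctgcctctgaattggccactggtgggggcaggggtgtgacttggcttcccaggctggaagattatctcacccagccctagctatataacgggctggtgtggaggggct
Amotl2: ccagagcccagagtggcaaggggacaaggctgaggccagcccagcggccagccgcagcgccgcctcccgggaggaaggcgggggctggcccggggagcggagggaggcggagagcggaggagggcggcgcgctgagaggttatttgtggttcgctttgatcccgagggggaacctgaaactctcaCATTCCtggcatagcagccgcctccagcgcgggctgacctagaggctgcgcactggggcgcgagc

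Libraries held 8106344 to 54906212 reads in genes (median 27175852). The median read count behind a value was 226 for Ankrd1 and 364 for Tgfb2, the thinnest of the members, and between 926 (Tgfb1) and 2508 (Ctgf) for the other 6. Ankrd1 had no read in 2 libraries and fewer than 10 in 19, and Tgfb2 fewer than 10 in 12. At the median depth, 3 reads correspond to 0.0166 to 0.0405 RPKM depending on the gene, which is the least that could be told from 0 (counting error only). Within the 61 groups, 1223 pairs of libraries were compared and 0 were identical. Some libraries went against their labels by tissue markers. The PyMT BL6 library labelled as the tumour of animal PT_9873 had 692 RPKM summed over 7 lung epithelial markers (1.99 to 35.5 in the other 5), and the one labelled as the lung metastasis of animal LM1_9783 had 1.21 (398 to 10865 in the other 5). The MOLF library labelled as the tumour of animal MOLF_9878 had 3577 RPKM over 6 skeletal muscle markers (1.91 to 172 in the other 7), and the FVB library labelled as the lung metastasis of animal mouse9716 had 75388 over the lung markers (197 to 13650 in the other 12). The 2 M6 libraries labelled as intracardiac lung metastasis of 1 animal had a mean of 4.68 RPKM over the lung markers and 5651 over 5 hepatocyte markers. The Met1 library labelled as a tail vein lung metastasis had 88940 over the lung markers, against 52819 to 88141 in healthy lung. The M6 and Met1 libraries labelled as brain metastases had 5.2 and 22.9 RPKM over 6 mammary epithelial markers, and 1 of the 2 Met1 animals with spleen metastasis labels had 3.24 (1092 in the other). Without animal PT_9873 the level of Tgfb1 in BL6 tumours was 4.04 ± 1.41 RPKM (n = 5), and without animal MOLF_9878 the MOLF tumours (n = 7) had 9.96 ± 6.94 of Tgfb2, 79.0 ± 28.6 of Tgfb3 and 13.6 ± 11.0 of Tgfbi.

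Across the 22 groups of primary tumours, Ankrd1 separated the models most, followed by Ctgf and the ligand Tgfb2, and Cyr61 did so least. The ratio of the highest to the lowest group mean was 122 for Ankrd1, 49.4 for Ctgf, 49.3 for Tgfb2, 26.6 for Tgfb3, 16.4 for Tgfbi, 10.9 for Tgfb1, 6.87 for Amotl2 and 3.97 for Cyr61. These levels describe the models and were not tested against each other as a whole.

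Tgfb1 was highest in the Myc-driven allografts Mvt1 and 6DT1, but was low in the transgenic MMTV-Myc tumours (7.50 ± 3.93 RPKM, n = 6). Its group mean was 43.3 ± 7.87 RPKM in Mvt1 (SD, n = 6), 39.1 ± 12.3 in 6DT1 (n = 6), 31.4 ± 6.60 in 4T1 (n = 6) and 24.8 ± 2.18 in 4T07 (n = 6). It was lowest in PyMT BL6, at 3.97 ± 1.27 (n = 6). Over the 14 allograft groups the means ran from 9.06 (F311) to 43.3 with a median of 17.1, and over the 8 transgenic groups from 3.97 to 15.4 (MMTV-Neu) with a median of 8.64. All 21 neighbours in the order of Tgfb1 means had overlapping ranges. The MMTV-Neu mean hides a wide gap, since its 2 tumours were at 2.75 and 28.1 RPKM.

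Tgfb2 and Tgfb3 ran the other way, with higher medians of group means in transgenic groups (8.14 and 53.5 RPKM) than in allografts (0.881 and 12.8). Their highest group means were in the PyMT tumours of CAST and MOLF. Tgfb2 was 10.6 ± 2.42 RPKM in CAST (n = 7), 10.5 ± 6.58 in MOLF (n = 8), 10.2 ± 3.37 in FVB (n = 14), 8.86 ± 1.45 in BL10 (n = 6) and 7.42 ± 1.26 in BL6 (n = 6). Of the allografts, only F311 (7.57 ± 2.21, n = 4), Met1 (6.64 ± 4.71, n = 7) and D2A1 (6.25 ± 2.32, n = 4) were at such levels. The order broke between MMTV-Neu (4.45, n = 2) and MMTV-Myc (2.14 ± 0.485, n = 6), whose ranges did not overlap. At the foot were 4T07 (0.237 ± 0.318, n = 6) and 67NR (0.215 ± 0.223, n = 6).

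Tgfb3 reached 99.8 ± 24.3 RPKM in CAST (n = 7), the highest group mean of any ligand, with 75.3 ± 28.5 in MOLF (n = 8) and 58.3 ± 22.0 in FVB (n = 14). It was 5.99 ± 0.967 in 67NR (n = 6) and 3.75 ± 0.521 in E0771 (n = 4), and the ranges of these last 2 did not overlap. Tgfb3 was the highest of the 3 ligands in every animal of the 5 PyMT strains (14 of 14 FVB, 6 of 6 BL6, 6 of 6 BL10, 7 of 7 CAST and 8 of 8 MOLF), in 6 of 6 MMTV-Myc tumours, and in 4 of 4 TSAE1 tumours. In F311 it was above Tgfb1 in 4 of 4 tumours, and its range (8.01 to 20.2 RPKM) overlapped that of Tgfb2 (4.48 to 9.75). By group means Tgfb3 also led in F311, Met1, C3Tag and MMTV-Neu, and Tgfb1 led in the other 11 groups, all of them allografts. No primary tumour group had Tgfb2 as its highest ligand by mean.

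Tgfbi was highest in 4 allografts of BALB and 129S1J lines, at 89.6 ± 11.1 RPKM in R3T, 89.0 ± 6.42 in TSAE1, 88.7 ± 15.2 in EMT6 and 64.1 ± 18.9 in F311 (n = 4 each). In PyMT tumours it was 5.46 ± 1.81 in FVB (n = 14), 5.88 ± 2.24 in BL10 (n = 6), 5.95 ± 2.12 in BL6 (n = 6), 8.53 ± 2.53 in CAST (n = 7) and 16.5 ± 13.1 in MOLF (n = 8). The medians of group means were 39.1 for allografts and 7.24 for transgenic groups. No step in the order separated neighbouring ranges (21 of 21 overlapped).

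Of the YAP targets, Ankrd1 fell by group means into a high and a low set with a gap between them. Single tumours crossed the gap. The lowest M6 and Mvt1 tumours were at 1.29 and 4.82 RPKM, and the highest CAST and MOLF tumours at 5.36 and 4.62. The 13 groups from HRM1 (53.1 ± 17.2 RPKM, n = 4) and 4T1 (43.8 ± 11.2, n = 6) down to C3Tag (12.1 ± 4.04, n = 3) were followed by E0771 at 1.92 ± 1.32 (n = 4), and the ranges of C3Tag and E0771 did not overlap. Below E0771 came MMTV-Myc (1.62), the 5 PyMT strains (0.436 in FVB to 1.48 in CAST), MMTV-Neu (0.565) and Met1 (0.482 ± 0.30, n = 7). All 6 PyMT-driven groups of these 22, the Met1 allograft among them, were thus in the low set. The FVB tumours held 0.109, 0.405 and 0.747 RPKM (lowest, median and highest of 14), where 3 reads of Ankrd1 at the median depth correspond to 0.0405 RPKM.

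Ctgf was 166 ± 78.2 RPKM in 4T07 (n = 6), 94.8 ± 22.5 in C3Tag (n = 3), 87.5 ± 39.99 in 4T1 (n = 6) and 62.8 ± 12.1 in M6 (n = 6). It was 3.36 ± 0.662 in E0771 (n = 4), whose range lay below that of TSAE1 (11.2 ± 1.75, n = 4). Cyr61 spread least between groups, from 75.4 ± 32.8 in EMT6 (n = 4) to 19.0 ± 4.80 in E0771 (n = 4), and widely within them, from 20.1 to 122 in the 14 FVB tumours. Amotl2 ran from 15.0 ± 1.85 in EMT6 (n = 4), 13.8 ± 2.06 in C3Tag (n = 3) and 12.9 ± 3.35 in M6 (n = 6) to 2.18 ± 0.807 in E0771 (n = 4). E0771 was thus the lowest group for Tgfb3, Ctgf, Cyr61 and Amotl2.

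**Figure D1:**
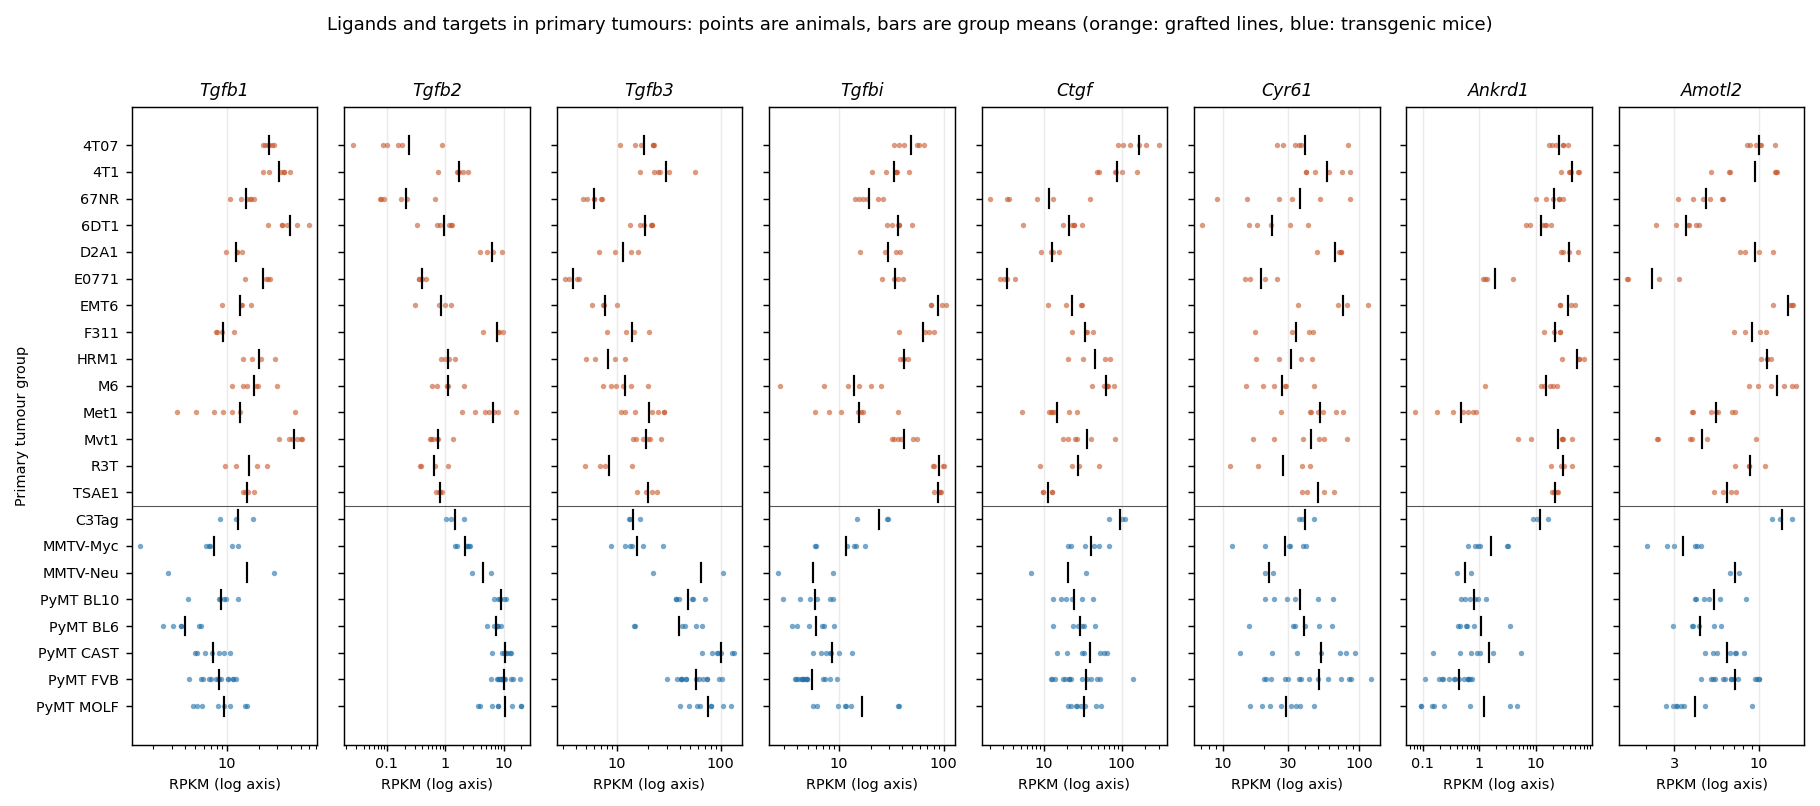
RPKM (log axis) of each of the 8 genes in the 22 primary tumour groups. Points are animals, bars are group means, orange marks grafted lines and blue transgenic models. Tgfb2 and Tgfb3 means are highest in the PyMT strains CAST and MOLF, Ankrd1 is below 2 RPKM on average in PyMT, Met1, MMTV-Myc, MMTV-Neu and E0771 tumours, and Cyr61 varies least between groups.

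Members were compared with each other by Pearson's r of log2(RPKM + 1), given as a description over groups that share host strains and laboratory. Over the 22 group means, Tgfbi and Ankrd1 had r = 0.81, Tgfb2 and Tgfb3 0.74, and Tgfb1 and Tgfb2 -0.70. Within groups (deviations of 123 animals from their group mean), the same pairs had 0.43, 0.35 and 0.02, so the opposite order of Tgfb1 and Tgfb2 was between models and not within them. Ctgf and Cyr61, the CCN pair, did the reverse, with 0.17 over group means and 0.60 within groups. Ctgf and Amotl2 had 0.55 and 0.47.

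The genes whose tumour pattern was most like each member's were named by the highest r over the 22 group means among 11079 genes. For Tgfb1 these were Anxa11 (0.89), Cds2 (0.85) and Sav1 (0.85), for Tgfbi Nub1 (0.95), Eno3 (0.94) and Slamf9 (0.93), and for Ankrd1 Papd4, Rai14 and Clcf1 (0.94 each). Tgfb2 was followed most closely by Cgrrf1 (0.88), Tgfb3 by Vmac (0.92), Ctgf by 2700081O15Rik (0.87) and Amotl2 by Tusc3 (0.82). Cyr61 had no close partner, with Rnd3 highest at 0.72.

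The first comparison the design implies is the lung metastasis against the primary tumour of the same animal, for which 68 animals in the 10 models compared had both. The 2 MMTV-Neu animals with both tissues are given as values only. Over the models, Tgfb3 fell, Tgfb1 fell and Tgfbi rose, while none of the 4 YAP targets passed the test. The model was the unit (1 mean difference per model, limma, Benjamini-Hochberg adjusted over 11467 genes), and an adjusted p under 0.05 counted as a call. Differences here and below are on the log2(RPKM + 1) scale, which understates the change of low genes such as Tgfb2 and Ankrd1. In this comparison 3 of 8 members were called (1 higher, 2 lower), and 31.2% of all genes were (11.7% higher, 19.4% lower).

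Tgfb3 was lower in metastases in 10 of 10 model means and 56 of 68 animals. Among allografts its mean went from 29.8 RPKM in tumours to 21.7 in metastases in 4T1, from 18.8 to 12.8 in 6DT1, from 19.0 to 11.7 in Mvt1, from 21.0 to 14.2 in Met1 and from 11.8 to 9.44 in M6. Among PyMT strains it went from 56.6 to 53.1 in FVB (57.7 in metastases without mouse9716, with a log difference of -0.04), from 45.0 to 27.7 in BL6, from 48.7 to 40.3 in BL10, from 99.8 to 46.8 in CAST and from 75.3 to 57.8 in MOLF. The direction was shared by allografts and PyMT strains, and the step was smallest in FVB and M6. The mean difference was -0.58 ± 0.07 (SE, n = 10 models; adjusted p = 6.23e-05).

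Tgfb1 was lower in 8 of 10 models and 49 of 68 animals, at 12.2 RPKM over the metastasis means and 18.4 over the tumour means. Its mean fell most in Mvt1 (43.3 to 19.1) and 4T1 (31.4 to 14.4), and it was 39.1 and 37.6 in 6DT1 tumours and metastases. The 2 models with higher means in metastases were FVB (7.91 and 9.43) and BL6 (4.04 and 4.06). The mean difference was -0.48 ± 0.12 (SE, n = 10; adjusted p = 0.0113). A limma F test of whether the animals' differences vary between models gave adjusted p = 0.0208 for Tgfb1, the only member below 0.05 (17.5% of 11089 genes were). Allograft and transgenic models as 2 kinds did not account for a called difference in any member (limma, 0 of 8, and 0 at an unadjusted p under 0.05, with 0.671% of genes called).

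Tgfbi rose in 10 of 10 model means and 54 of 68 animals. Its mean was 33.6 RPKM in tumours and 63.1 in metastases in 4T1, 36.9 and 56.0 in 6DT1, 41.4 and 46.8 in Mvt1, 16.9 and 22.5 in Met1, and 13.8 and 26.0 in M6. In PyMT strains it was 5.28 and 9.75 in FVB, 6.44 and 14.5 in BL6, 5.88 and 12.4 in BL10, 8.53 and 9.30 in CAST, and 16.5 and 14.7 in MOLF. In MOLF the RPKM mean was thus lower in metastases although the mean of the log differences was above 0. The mean difference was 0.56 ± 0.10 (SE, n = 10; adjusted p = 0.00164).

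The other 5 members missed the threshold. Ankrd1 differed by 0.41 ± 0.15 (adjusted p = 0.0501) and was higher in 7 of 10 models and 50 of 68 animals. It passed the test with a pseudocount of 0.1 (0.71, adjusted p = 0.0312), after rescaling of the libraries (adjusted p = 0.0493) and without M6 (adjusted p = 0.0298), CAST or MOLF (adjusted p = 0.0424). Cyr61 differed by -0.33 ± 0.14 (adjusted p = 0.0962) and was lower in 8 of 10 models, and without Met1 it passed the test (-0.43). Tgfb2 differed by 0.17 ± 0.09 (adjusted p = 0.145), Ctgf by 0.11 ± 0.13 (adjusted p = 0.529) and Amotl2 by 0.04 ± 0.07 (adjusted p = 0.713). For Amotl2, 5 models had higher and 5 lower means.

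Markers of lung and stroma moved with these differences. All 7 lung epithelial markers and all 6 endothelial markers were higher in metastases (list medians 6.83 and 1.07 on the log2 scale), and 8 of 10 fibroblast markers were lower (list median -1.75), while 1 of 6 macrophage markers and none of 6 mammary epithelial markers passed the test. In bulk tissue, fewer cells of a type and less RNA per cell cannot be told apart. Healthy lung (n = 4) held 98.9 RPKM of Ctgf, 52.8 of Cyr61, 32.6 of Amotl2 and 17.9 of Ankrd1, and 13.8, 6.29, 8.41 and 14.0 of Tgfb1, Tgfb2, Tgfb3 and Tgfbi. From the lung markers, the share of lung RNA in a metastasis library had a median between 7.07% (MOLF) and 28.0% (6DT1). After that share of healthy lung was subtracted, Tgfb3 (-0.47), Tgfb1 (-0.84) and Tgfbi (0.69) kept their calls. Ctgf (-1.42, adjusted p = 0.00446), Cyr61 (-0.98, adjusted p = 0.00559) and Amotl2 (-1.43, adjusted p = 2.05e-06) were then also called lower, 6 of 8 in all. The share of all genes called after subtraction is not given here, so this count has no share to stand beside. The sign had changed for Ctgf, Amotl2, Tgfb2 (-0.11) and Ankrd1 (-0.20, adjusted p = 0.375). Values that the subtraction took below 0 were set to 0. In 6DT1 metastases, mean Amotl2 (5.53 RPKM) and Ctgf (22.1) were below the median share (28.0%) of their healthy lung levels. More was thus subtracted there than was measured, and the lower calls of Ctgf and Amotl2 cannot be told apart from over-subtraction. Without the FVB animal whose metastasis library was mostly lung (mouse9716), the called differences were -0.55 for Tgfb3 (adjusted p = 0.000359), -0.48 for Tgfb1 (adjusted p = 0.0106) and 0.56 for Tgfbi (adjusted p = 0.00176). The BL6 libraries of animals PT_9873 and LM1_9783 had no partner and were not in the comparison. Without the CAST strain 5 members were called, since Tgfb2 (0.23, adjusted p = 0.0484) and Ankrd1 (0.49, adjusted p = 0.0319) joined.

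**Figure D2:**
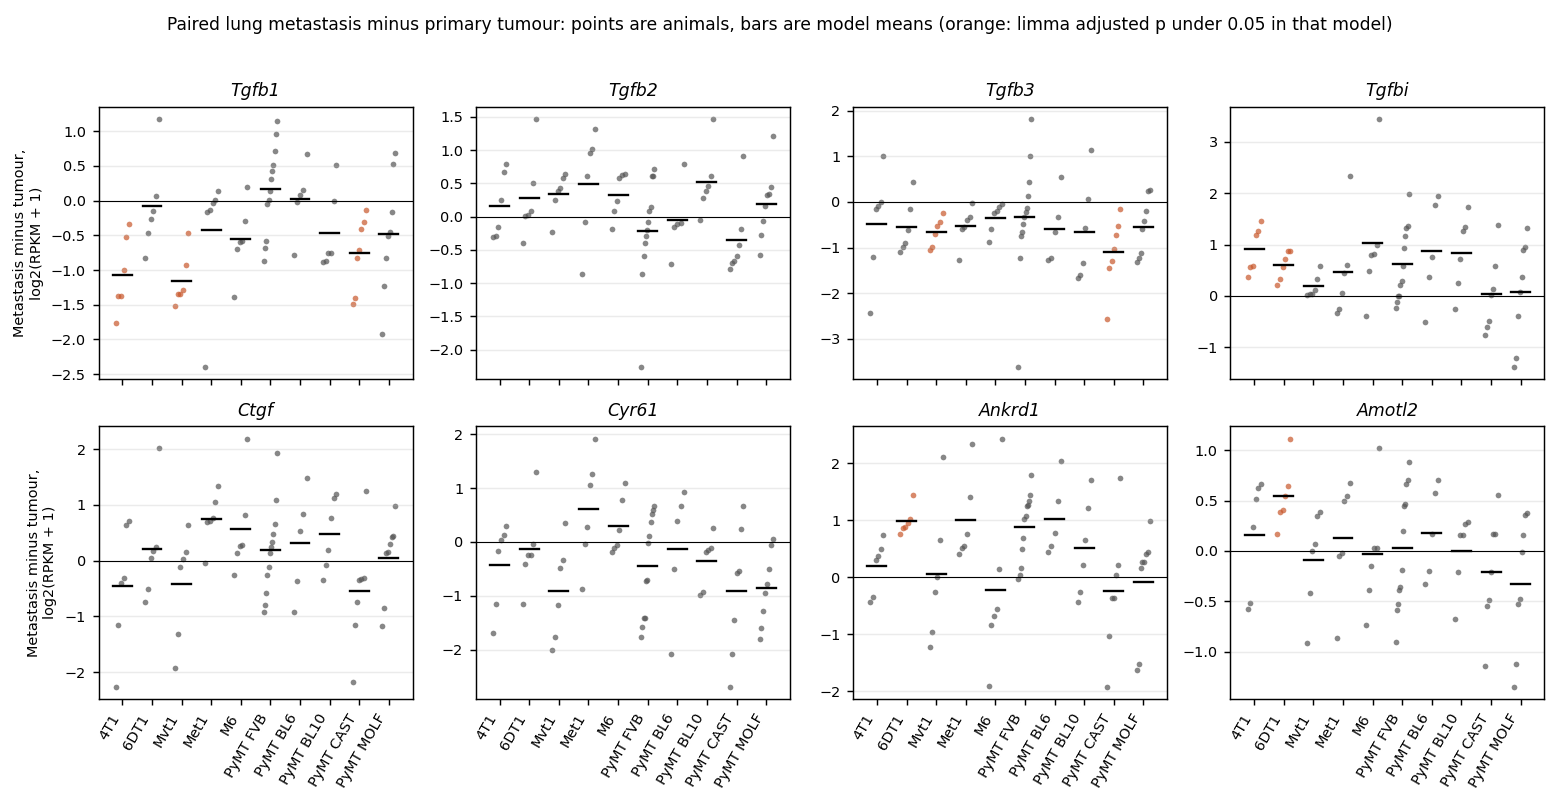
Lung metastasis minus primary tumour of the same animal, on the log2(RPKM + 1) scale, for 8 genes in 10 models. Points are animals, bars are model means, and orange marks a gene called in that model. Tgfb3 means are below 0 in 10 of 10 models and Tgfbi means above 0 in 10 of 10.

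Around the members, TGF-beta pathway genes were called in both directions, and the Hippo, YAP and TEAD genes that were called were lower in metastases, beside 19.4% of all genes called lower. Of 5 receptor genes, Acvrl1, a type I receptor of endothelium (1.00, 11.3 against 5.14 RPKM), and its coreceptor Eng (0.45) rose and Tgfbr3, betaglycan, fell (-0.28). The Eng call was lost without any 1 of 7 models (6DT1, M6 and the 5 PyMT strains) and the Tgfbr3 call without Met1, FVB, BL6, CAST or MOLF. With the lung share subtracted, Acvrl1 was at -2.05 and Eng at -2.41. Of 9 genes for latent TGF-beta and its activation, Itgb6 rose (0.80), and Ltbp3, a latent TGF-beta binding protein (-0.69, 28.8 against 44.7 RPKM), and Lrrc32 (-0.49) fell. Of 5 SMAD genes 1 rose (Smad6, 0.41) and 2 fell (Smad7, -0.34, and Smad3, -0.21), the Smad7 call being lost without 4T1, Mvt1, M6 or CAST. Of 7 tested SMAD target genes, a list that also holds Smad7, Id1 rose (0.98, and -1.17 with the lung share subtracted) and 4 fell, among them Pmepa1 (-1.02, 23.5 against 41.5 RPKM) and Skil (-0.25). Of 10 tested Hippo kinases and regulators 5 fell and none rose, with Nf2 at -0.37, Sav1 at -0.26 and Lats1 at -0.19. Of 7 YAP and TEAD genes 4 fell and none rose, with Vgll4 at -0.35, Yap1 at -0.32 (19.8 against 24.5 RPKM) and Tead3 at -0.29. Of 13 other YAP targets 2 fell, Igfbp3 (-1.22, 21.1 against 49.6 RPKM) and Nuak2 (-0.19, lost without any 1 of 4T1, 6DT1, Mvt1, FVB, CAST and MOLF), and none rose. The list medians were -0.01, -0.24, -0.10, -0.25, -0.15, -0.29 and -0.14 in this order, beside -0.04 over all genes tested.

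Within single models, Tgfb1 fell in 4T1, Mvt1 and CAST, Tgfb3 fell in Mvt1 and CAST, and Tgfbi rose in 4T1 and 6DT1. In 4T1 (6 animals, 12.1% of genes called, 7.36% higher and 4.75% lower), 2 members were called. Tgfb1 was at 22.1, 33.4 and 39.7 RPKM in tumours (lowest, median, highest) and at 9.54, 15.2 and 17.2 in metastases, lower in 6 of 6 animals with no overlap. The difference was -1.06 ± 0.19 (SE; adjusted p = 0.0152), and the call was lost with the lung share subtracted (-1.12, adjusted p = 0.0515). Tgfbi was at 20.5, 35.2 and 46.4 in tumours and 46.0, 63.5 and 81.5 in metastases, higher in 6 of 6 animals, with ranges that just overlapped (0.91 ± 0.17, adjusted p = 0.0169). Without animal 1 the Tgfbi call was lost (adjusted p = 0.0503).

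In Mvt1 (6 animals, 29.0% of genes called, 17.8% lower), Tgfb1 and Tgfb3 both fell. Tgfb1 was at 31.1, 43.6 and 51.9 RPKM in tumours and 15.4, 17.5 and 29.4 in metastases, with no overlap (-1.15 ± 0.14, adjusted p = 0.00281). Tgfb3 was at 14.4, 18.7 and 26.6 in tumours and 8.50, 11.4 and 15.0 in metastases, lower in 6 of 6 animals with overlap at the edge (-0.65 ± 0.12, adjusted p = 0.00838). In CAST (7 animals, 4.51% of genes called, 3.2% lower) the same ligands fell. Tgfb3 was at 65.9, 94.6 and 133 in tumours and 21.0, 48.1 and 59.1 in metastases, with no overlap (-1.10 ± 0.25, adjusted p = 0.0423). Tgfb1 was at 4.93, 7.12 and 10.6 in tumours and 2.33, 3.81 and 6.85 in metastases, lower in 7 of 7 animals (-0.75 ± 0.18, adjusted p = 0.0454). Both CAST calls were close to the threshold, and at least 1 of them was lost without any 1 of animals CAST_10055, CAST_10073, CAST_10075, CAST_10077, CAST_10131 and PT_9802, so that 0 to 1 members were then called. Both were also lost without the filter on low values (adjusted p = 0.0684 for Tgfb3 and 0.0714 for Tgfb1) and after rescaling of the libraries (0.0729 and 0.0842).

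In 6DT1 (6 animals, 34.4% of genes called, 19.4% higher), Tgfbi, Ankrd1 and Amotl2 rose. Ankrd1 was at 6.81, 13.5 and 18.2 RPKM in tumours and 14.9, 25.7 and 31.7 in metastases, higher in 6 of 6 animals (0.99 ± 0.10, adjusted p = 0.000282). Tgfbi was at 28.8, 36.9 and 49.9 in tumours and 46.0, 57.05 and 68.6 in metastases (0.60 ± 0.11, adjusted p = 0.00426). Both pairs of ranges overlapped. Amotl2 was at 2.30, 3.67 and 4.28 in tumours and 4.95, 5.54 and 6.14 in metastases, with no overlap (0.55 ± 0.12, adjusted p = 0.0102). Healthy lung held 30.9 to 33.9 RPKM of Amotl2, and with the lung share subtracted the 6DT1 difference was -1.92. The median share (28.0%) of the healthy lung level exceeded the mean measured in 6DT1 metastases (5.53), and values below 0 were set to 0. The sign after subtraction therefore cannot be read as a fall.

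With limma no member was called in Met1 (0.317% of genes called), M6 (4.71%), PyMT FVB (1.27%), BL6 (0.651%), BL10 (2.56%) or MOLF (1.1%). At an unadjusted p under 0.05 there were 3 in Met1, 3 in M6, 1 in FVB and 2 each in BL6, BL10 and MOLF. Tgfb3 was lower in 6 of 6 animals in Met1 (adjusted p = 0.336) and in M6 (adjusted p = 0.196). Cyr61 in MOLF was lower in 7 of 8 animals (-0.86, adjusted p = 0.0815, and 0.167 without animal MOLF_9878). Without that animal 0 members were called in MOLF (2 unadjusted), and without mouse9716 0 in FVB (1 unadjusted). Ankrd1 in Met1 was at 0.175 to 0.866 RPKM in the 6 tumours and 1.28 to 6.67 in the 6 metastases, higher in 6 of 6 animals with no overlap (adjusted p = 0.29). In FVB, where it was too low to be tested, it was 0.438 ± 0.214 in tumours and 1.89 ± 1.32 in metastases and higher in 11 of 12 animals. Healthy lung had 6.11 to 22.7 RPKM of Ankrd1, and after the lung share was subtracted Ankrd1 was too low to be tested in Met1 and FVB.

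Growth in the animal was compared with growth in culture for the 7 lines that had both. Tgfbi rose from near absence in culture, and Ankrd1 and Amotl2 were lower in tumours than in culture. The line was the unit (paired over 7 lines), 3 of 7 tested members were called (1 higher, 2 lower), and 21.9% of all genes were (12.4% higher, 9.55% lower). The labels do not say that culture libraries came from separate cultures, so the spread within a line may be technical.

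Tgfbi in culture was 0.0365 RPKM in 4T1, 0.0912 in 67NR, 0.244 in 4T07, 0.274 in M6, 0.510 in 6DT1, 0.80 in Mvt1 and 0.836 in Met1 (line means). In the tumours of these lines it was between 13.8 (M6) and 48.4 (4T07). Every line was higher in tumours and the ranges were far apart. The difference was 4.29 ± 0.28 (SE, n = 7; adjusted p = 1.13e-05).

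Ankrd1 in culture was 126 RPKM in 4T1, 94.2 in 67NR, 59.97 in M6, 59.2 in Mvt1, 44.1 in 4T07, 28.3 in Met1 and 20.9 in 6DT1, and each line was lower as a tumour. The gap was widest in Met1, with 23.2, 29.9 and 31.8 in the 3 culture libraries and 0.482 ± 0.30 in 7 tumours. Over the lines the means were 61.9 in culture and 20.4 in tumours (-1.90 ± 0.38, adjusted p = 0.00785). Without the pairing by line the adjusted p of Ankrd1 was 0.0787, and the other 2 calls stayed below 0.05. Amotl2 was 46.4 in cultured M6, 34.2 in Met1, 28.4 in 4T1, 20.7 in Mvt1, 16.2 in 4T07, 15.9 in 67NR and 6.15 in 6DT1, and again every line was lower in tumours (7.19 in tumours against 24.0 in culture over the lines, -1.53 ± 0.22, adjusted p = 0.00157). The ranges of line means overlapped for both genes.

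The CCN genes did not follow Ankrd1 and Amotl2 as a rule. Cyr61 in culture ran from 6.08 RPKM in 6DT1 and 29.0 in 4T07 to 253 in Met1, 298 in 67NR and 571 in Mvt1, and was 22.8 to 58.0 in tumours. It was lower as a tumour in 5 of 7 lines and was not called. Ctgf was 0.232 in cultured 67NR, 3.19 in 6DT1, 13.8 in 4T07 and 86.0 in Mvt1, was higher as a tumour in 5 of 7 lines, and was not called. Tgfb1 ran from 0.903 in cultured 67NR and 6.72 in 4T1 to 57.6 in 6DT1, against 13.3 to 43.3 in tumours (5 of 7 lines higher, not called). Tgfb3 was 16.9 over the cultures and 17.7 over the tumours. Tgfb2 was too low to be tested, at 1.24 and 1.65, and was higher as a tumour in 7 of 7 lines.

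In 4T1, 4T07 and 67NR the culture libraries came in pairs named AS and isolation, and these pairs differed. Ctgf in 4T07 was 1.52 and 1.51 RPKM in the AS libraries and 26.3 and 26.0 in the isolations, a ratio of 17.2. Cyr61 in 67NR was 105 and 77.2 against 563 and 447. Tgfb1 in 4T1 was 3.31 and 3.01 against 7.55 and 13.0. For Ankrd1 the pairs differed by at most 1.31 times. The 3 called members were also called when the AS libraries were left out.

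**Figure D3:**
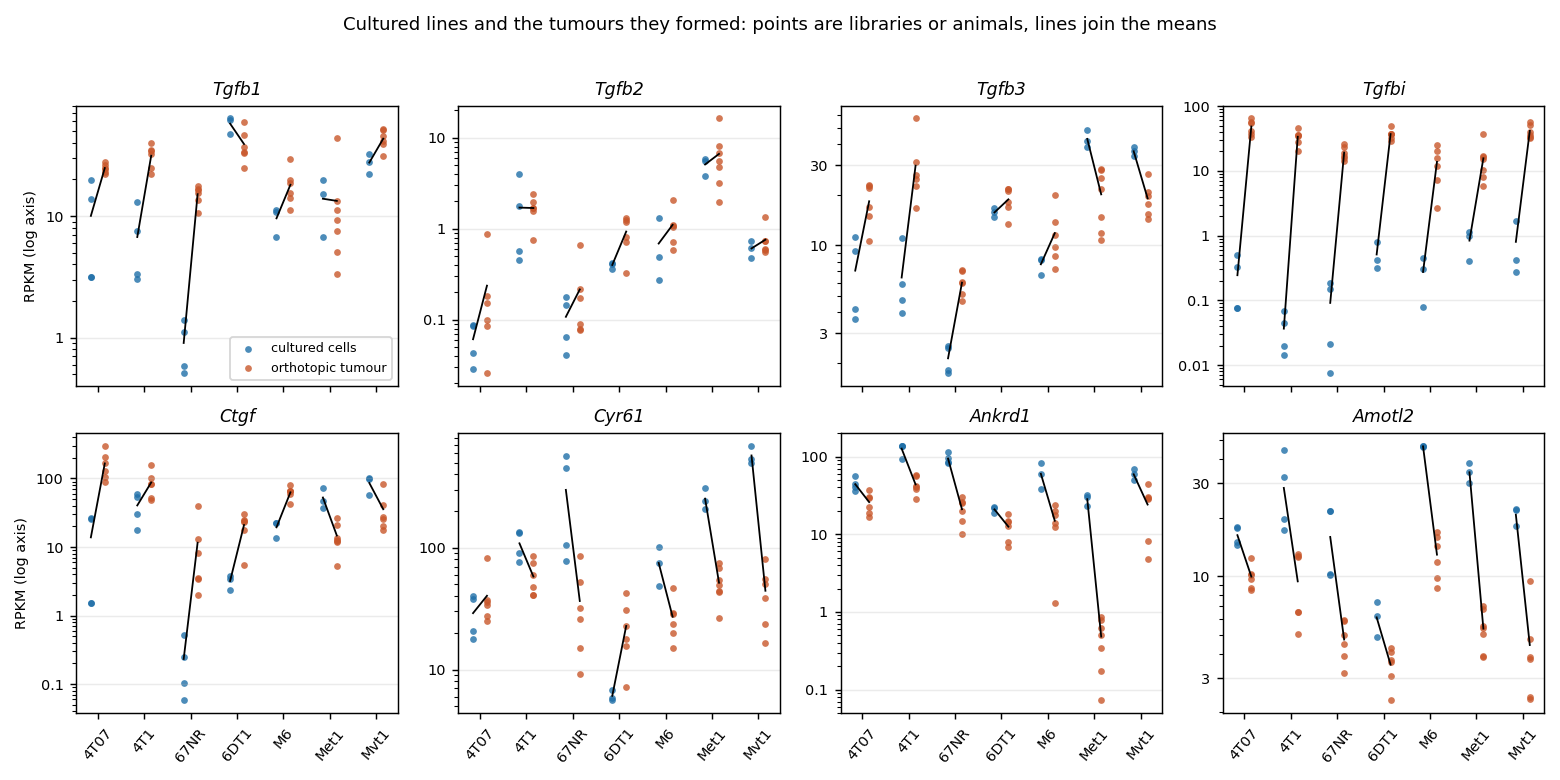
RPKM (log axis) of 8 genes in 7 lines, with cultured cells in blue (libraries) and orthotopic tumours in orange (animals). Lines join the means. Tgfbi is below 2 RPKM in every culture library and above 2 in every tumour, and Ankrd1 is higher in culture in 7 of 7 lines.

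Host cells came with the tumours. Fibroblast markers were higher in tumours for 8 of 9 tested, endothelial for 5 of 5 and macrophage for 6 of 6, and none of 5 mammary epithelial markers passed the test. The summed fibroblast markers were 1.14 to 22.1 RPKM in culture libraries apart from Met1 (47.1 to 190), and 35.2 or more in tumours. The part of host cells in the Tgfbi difference was not tested. Of the pathway lists, 2 of 5 receptor genes rose (Acvrl1, 1.94, and Eng, 1.92), and none of 6 tested latency genes and none of 5 SMAD genes passed the test. Of 10 tested Hippo kinases and regulators 4 were lower in tumours, among them Wwc1 (-1.01), Lats1 (-0.62) and Ptpn14 (-0.51), and of 7 YAP and TEAD genes 2 were lower, Tead4 (-0.72) and Yap1 (-0.45, 22.0 against 30.4 RPKM). The Lats1 call was lost without the AS libraries and the Yap1 call without 6DT1, Mvt1, Met1 or M6. Of 13 other YAP targets, Igfbp3 was higher in tumours (5.43, 75.6 against 0.307 RPKM) and 3 were lower, among them Myof (-0.93) and Dock5 (-0.86). The list medians were 0.89 for receptors, 0.23 for latency, -0.20 for SMAD genes, -0.04 for SMAD targets, -0.36 for Hippo regulators, -0.02 for YAP and TEAD, and -0.26 for other YAP targets, beside -0.04 over all genes.

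The BALB lines 4T1, 4T07 and 67NR derive from the same tumour and are used as a series of decreasing metastatic ability in the field, 67NR being known as non-metastatic. Both 4T1 and 4T07 tumours had more Tgfb1, Tgfb3, Tgfbi, Ctgf and Amotl2 than 67NR tumours, and 4T1 also more Ankrd1. The comparisons share the 67NR tumours, so they are not independent of each other. Members called were 6 of 7 tested in 4T1 (59.4% of all genes, 29.5% higher) and 5 of 7 in 4T07 (64.8% of all genes, 29.5% higher), all higher, beside a majority of all genes.

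Ctgf separated the lines most widely. It was at 2.02, 5.88 and 39.2 RPKM in 67NR tumours (lowest, median, highest of 6), 48.0, 83.4 and 158 in 4T1 and 89.6, 148 and 301 in 4T07, and neither overlapped 67NR. The differences were 3.31 ± 0.54 (SE; adjusted p = 0.000169) for 4T1 and 4.22 ± 0.57 (adjusted p = 3.37e-05) for 4T07. Tgfb3 was at 4.66, 6.01 and 7.09 in 67NR, 16.8, 25.6 and 56.9 in 4T1 and 10.6, 19.5 and 22.9 in 4T07, again without overlap (2.05 ± 0.22, adjusted p = 4.42e-06, and 1.43 ± 0.17, adjusted p = 6.39e-06). Tgfb1 was at 10.7, 15.9 and 17.8 in 67NR, 22.1, 33.4 and 39.7 in 4T1 and 22.0, 24.6 and 28.0 in 4T07. Neither line overlapped 67NR (1.00 ± 0.15, adjusted p = 7.94e-05, and 0.69 ± 0.11, adjusted p = 7.55e-05).

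Tgfbi was at 14.1, 17.8 and 26.1 RPKM in 67NR, 20.5, 35.2 and 46.4 in 4T1 (0.77 ± 0.19, adjusted p = 0.0029) and 33.6, 48.6 and 64.4 in 4T07 (1.29 ± 0.18, adjusted p = 3.49e-05), and only 4T1 overlapped 67NR. Amotl2 was at 3.18, 4.73 and 5.99 in 67NR, 5.07, 9.58 and 12.9 in 4T1 (0.80 ± 0.23, adjusted p = 0.00771) and 8.46, 9.91 and 12.5 in 4T07 (0.95 ± 0.13, adjusted p = 2.07e-05), with overlap again only for 4T1. Ankrd1 was at 9.92, 22.7 and 29.7 in 67NR and 28.2, 41.4 and 58.0 in 4T1 (1.07 ± 0.25, adjusted p = 0.00211), with a slight overlap. In 4T07 it was at 16.8, 26.0 and 37.2 and was not called. Cyr61 was not called in either, at 36.5 ± 28.0 in 67NR, 58.0 ± 18.6 in 4T1 and 40.3 ± 21.1 in 4T07. Tgfb2 was too low to be tested, at 0.215 in 67NR, 0.237 in 4T07 and 1.69 in 4T1, and in 4T1 every tumour (0.759 to 2.43) lay above every 67NR tumour (0.0771 to 0.654).

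**Figure D4:**
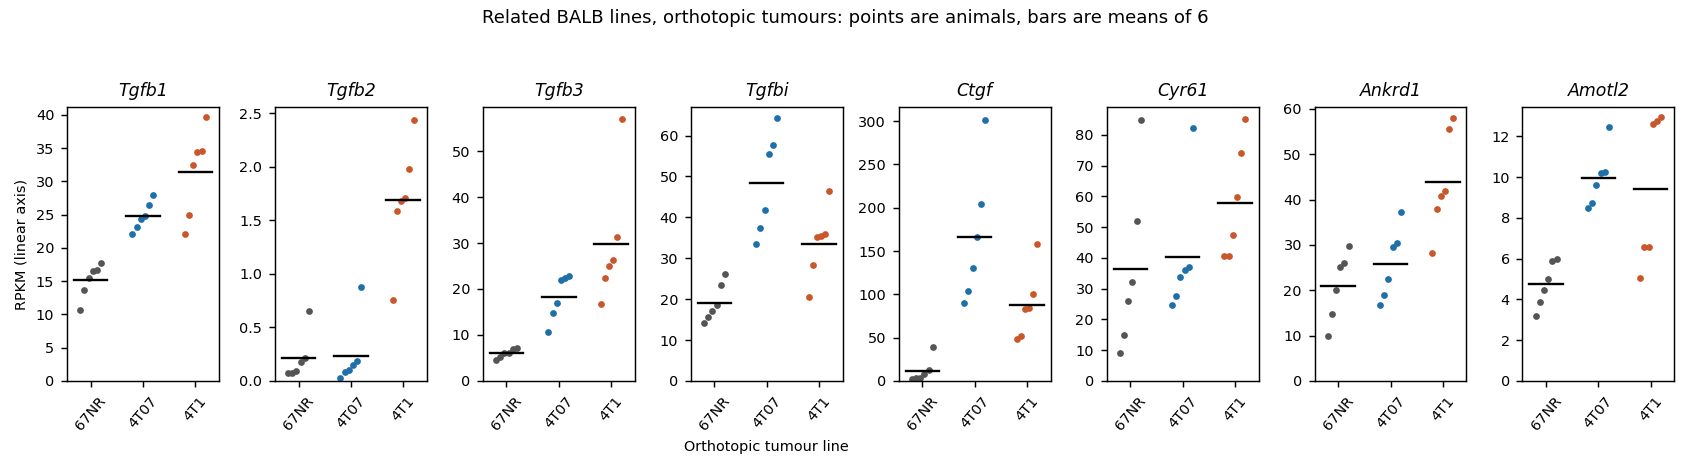
RPKM (linear axis from 0) of 8 genes in orthotopic tumours of 67NR, 4T07 and 4T1. Points are animals and bars are means of 6. Ctgf, Tgfb1 and Tgfb3 are higher in 4T07 and 4T1 with no overlap with 67NR, and Cyr61 overlaps between all 3 lines.

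The tumours also differed in what they were made of. Mammary epithelial markers summed to 0.731 to 4.70 RPKM in 67NR tumours, 189 to 318 in 4T07 and 508 to 1176 in 4T1. All 5 tested mammary markers were higher in 4T1 than in 67NR, 5 of 10 fibroblast markers were higher (8 without 67NR tumour 1) and 5 of 6 macrophage markers lower. In 4T07, 2 of 10 fibroblast markers were higher and 1 lower, and 5 of 5 endothelial and 6 of 6 macrophage markers were lower. The part of these cells in the member differences was not tested. The pathway counts that follow stand beside 59.4% of all genes called in 4T1 against 67NR and 64.8% in 4T07 (29.5% higher in each). Among pathway genes in 4T1 against 67NR, 5 of 7 latency genes rose, including Ltbp4 (3.30), Ltbp2 (1.98) and Ltbp3 (1.35), and 2 fell. Of the receptors Eng (1.64) and Tgfbr1 (0.88) rose and Tgfbr3 fell (-0.81). Of 6 SMAD targets 5 rose, among them Skil (1.46), Pmepa1 (1.26) and Smad7 (0.61), and none fell. Of 10 Hippo regulators 4 rose, among them Amotl1 (1.41), Nf2 (0.63) and Stk3 (0.34), and none fell. Of 7 YAP and TEAD genes 4 rose, among them Tead2 (2.30) and Tead3 (1.33), and 2 fell, among them Wwtr1, the gene of TAZ (-0.99). Of 13 other YAP targets 6 rose, among them Nt5e (3.97) and Nuak2 (2.13), and Myof fell (-0.59). The CCN paralogs Wisp1 (2.66) and Wisp2 (2.72) rose. In 4T07 against 67NR, 3 of 6 SMAD targets rose and none fell, 3 of 5 receptors fell and none rose, and of 13 other YAP targets 6 rose and 3 fell.

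Strain was compared within the PyMT driver, each against the FVB tumours (n = 14), which all 4 strain comparisons and the MMTV-Myc comparison share. Tgfb1 and Amotl2 were lower in BL6, Tgfb3 and Tgfbi higher in CAST, Tgfbi higher and Amotl2 lower in MOLF, and no member was called in BL10 (limma, 1 at an unadjusted p under 0.05, 9.37% of genes called). In BL6 (n = 6, 6.59% of genes called, 3.79% lower), Tgfb1 was at 2.44, 3.63 and 5.62 RPKM and in FVB at 4.39, 8.33 and 12.3 (-0.92 ± 0.18, adjusted p = 0.00443). Amotl2 was at 2.96, 4.06 and 5.83 against 4.40, 6.69 and 9.97 (-0.58 ± 0.16, adjusted p = 0.0306). Both pairs of ranges overlapped. Without the library labelled as tumour PT_9873, Tgfb1 was still called (-0.91, adjusted p = 0.0112) and Amotl2 was not (-0.50, adjusted p = 0.0816). The Amotl2 call was also lost without any 1 of tumours mouse9777, PT_9780 and mouse9792.

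In CAST (n = 7, 13.1% of genes called, 7.43% higher), Tgfb3 was at 65.9, 94.6 and 133 RPKM against 30.1, 51.7 and 103 in FVB (0.82 ± 0.21, adjusted p = 0.0123). Tgfbi was at 5.63, 8.23 and 13.3 against 3.8, 4.75 and 9.63 (0.57 ± 0.16, adjusted p = 0.0243), a call lost without tumour CAST_10055 or tumour CAST_10131. In MOLF (n = 8, 36.2% of genes called, 12.1% higher and 24.1% lower), Tgfbi was at 5.65, 11.5 and 37.8 (1.18 ± 0.27, adjusted p = 0.00188). Amotl2 was at 2.66, 3.23 and 9.03 (-0.72 ± 0.17, adjusted p = 0.00232), the highest value being the library with muscle markers. All of these ranges overlapped those of FVB. Without tumour MOLF_9878 the MOLF differences were 0.98 for Tgfbi (adjusted p = 0.00337) and -0.88 for Amotl2 (adjusted p = 9.17e-05). Library codes starting with KS are carried by 8 of 14 FVB tumours, 5 of 6 BL10, 2 of 6 BL6, 2 of 7 CAST and 2 of 8 MOLF. The 2 BL6 tumours with KS codes include PT_9873, the library with lung markers. Within KS codes none of these 6 calls held. Tgfb1 in BL6 was then at -0.70 (adjusted p = 0.17), Amotl2 in BL6 at -0.86 (adjusted p = 0.077), Tgfb3 and Tgfbi in CAST at 0.86 (adjusted p = 0.198) and 0.47 (adjusted p = 0.199), and Tgfbi and Amotl2 in MOLF at 0.28 (adjusted p = 0.325) and -0.74 (adjusted p = 0.12). Tgfb2 in MOLF was called within the KS codes only (1.08, adjusted p = 0.00673).

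Some markers of other cells were called in the same strain comparisons, beside 6.59% of all genes in BL6, 13.1% in CAST and 36.2% in MOLF. In BL6 3 of 3 tested smooth muscle markers and 1 of 3 lung epithelial markers were higher than in FVB, and in CAST 1 of 6 mammary epithelial markers was. In MOLF 2 of 2 smooth muscle, 2 of 6 macrophage, 1 of 10 fibroblast, 1 of 5 endothelial and 1 of 2 lung epithelial markers were higher and 1 of 6 mammary epithelial markers was lower. Smooth muscle markers summed to 8.22 to 59.1 RPKM in FVB tumours, 40.6 to 76.5 in BL6, 15.1 to 81.7 in CAST and 27.7 to 284 in MOLF. The part of these cells in the member differences was not tested.

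The driver was compared within the FVB strain entry by setting MMTV-Myc tumours (n = 6) against PyMT tumours (n = 14). Tgfb2, Tgfb3 and Amotl2 were lower and Tgfbi was higher with Myc, and 4 of 7 tested members were called beside 61.9% of all genes (20.8% higher, 41.1% lower). Tgfb2 was at 1.46, 2.31 and 2.60 RPKM with Myc and 6.04, 9.30 and 19.2 with PyMT, without overlap (-1.80 ± 0.17, adjusted p = 2.31e-08). Tgfb3 was at 8.72, 13.7 and 28.0 against 30.1, 51.7 and 103, also without overlap (-1.84 ± 0.24, adjusted p = 1.72e-06). Amotl2 was at 2.05, 3.51 and 4.36 against 4.40, 6.69 and 9.97, barely apart (-0.88 ± 0.16, adjusted p = 8.74e-05). Tgfbi was at 5.87, 12.9 and 17.9 against 3.8, 4.75 and 9.63, with overlap (0.91 ± 0.21, adjusted p = 0.000779). The median of all genes in this comparison was -0.21, and rescaling the libraries moved it by 0.198. Within the libraries that carry RNA codes (6 against 5) the 4 calls held, at -1.97, -1.73, -0.77 and 0.89 in this order. Of the pathway lists, 9 of 10 Hippo regulators, 6 of 7 YAP and TEAD genes, 6 of 9 latency genes and 4 of 5 receptors were lower with Myc. Of the cell markers, 3 of 6 macrophage, 2 of 3 smooth muscle, 1 of 1 platelet, 1 of 10 fibroblast and 1 of 2 cardiac were higher with Myc, 1 of 5 endothelial was higher and 1 lower, and 2 of 6 mammary epithelial were lower. Macrophage markers summed to 94.3 to 408 RPKM with Myc and 56.1 to 234 with PyMT, and smooth muscle markers to 24.2 to 185 and 8.22 to 59.1. Their part in these differences was not tested.

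Liver metastases gave 13 profiles in 4 groups, and the 7 of the M6 line injected into the heart were compared. Against orthotopic M6 tumours (n = 6), Cyr61, Amotl2, Tgfb1 and Ankrd1 were lower in liver metastases, 4 of 7 tested members beside 41.7% of all genes (30.5% lower). Cyr61 was at 4.55, 9.52 and 17.9 RPKM in liver metastases and 14.9, 26.2 and 46.7 in tumours (-1.34 ± 0.28, adjusted p = 0.00142). Amotl2 was at 4.71, 8.82 and 10.2 against 8.65, 13.1 and 16.9 (-0.62 ± 0.20, adjusted p = 0.0235). All 4 pairs of ranges overlapped. Tgfb1 was at 5.84, 11.9 and 17.3 against 11.1, 17.1 and 29.5 (-0.67 ± 0.26, adjusted p = 0.0453), and Ankrd1 at 0.442, 2.80 and 13.6 against 1.29, 16.0 and 23.6 (-1.61 ± 0.59, adjusted p = 0.0428). The Cyr61 call held whichever library was left out. The other 3 did not. The Tgfb1 call was lost without any 1 of liver metastases 1, IC_1278, IC_1297 and KH01 and tumours M6_820, M6_823, M6_870 and M6_874. The Ankrd1 call was lost without liver metastases 1, IC_1266, IC_1278, IC_1297 or KH01 or tumours M6_823, M6_870, M6_873, M6_874 or M6_878, and the Amotl2 call without tumours M6_823 or M6_873. The median of all genes was -0.34 here, and after rescaling of the libraries 1 member was called. The site, the route of injection, the host strain entry and the library codes change together in this comparison and cannot be told apart. All 5 hepatocyte markers were higher in the liver metastases, and their part in the result was not tested.

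Against the adjacent liver of the same animals (5 pairs), the M6 metastases had more of all 7 tested members, in 5 of 5 animals each, beside 93.2% of all genes called (81.9% higher) and a median of 1.35 over all genes. Ctgf was 38.3, 27.1, 48.1, 30.7 and 18.6 RPKM in the metastases of animals IC_1266, IC_1274, IC_1278, IC_1294 and IC_1297 and 2.16, 0.717, 1.54, 0.549 and 0.806 in their livers (3.95 ± 0.15, adjusted p = 6.33e-22). Tgfb3 was 7.21, 7.74, 6.85, 12.8 and 9.63 against 0.115, 0.0582, 0.0846, 0.0886 and 0.136 (3.13 ± 0.13, adjusted p = 4.17e-21). Tgfb3 was near absent in adjacent liver and Ctgf low, and the ranges did not overlap. Tgfb1 was 13.2 ± 2.33 against 1.45 ± 0.535 (2.55 ± 0.14, adjusted p = 7.84e-18), and Ankrd1 5.63 ± 4.76 against 0.0588 ± 0.0456 (2.38 ± 0.40, adjusted p = 0.0037). With 1 animal left out, the limma adjusted p rose to as much as 9.28e-10 for Ctgf and 4.6e-09 for Tgfb3. It rose to as much as 2.09e-08 for Tgfb1 and 0.023 for Ankrd1. Cyr61 was 12.0 against 2.52 (1.87), Amotl2 9.20 against 3.27 (1.28) and Tgfbi 10.2 against 5.01 (0.88). After the libraries were rescaled to each other, which moved the median of all genes by -1.33, 4 members were called. Tgfb1 (1.23), Tgfb3 (2.30) and Ctgf (2.65) were higher and Tgfbi was lower (-0.59), Cyr61 (0.45, adjusted p = 0.0556) and Amotl2 (-0.15) were not called, and Ankrd1 was too low to be tested. The direction for Tgfbi and Amotl2 therefore depends on the scaling. All 5 hepatocyte markers were lower in the metastases.

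**Figure D5:**
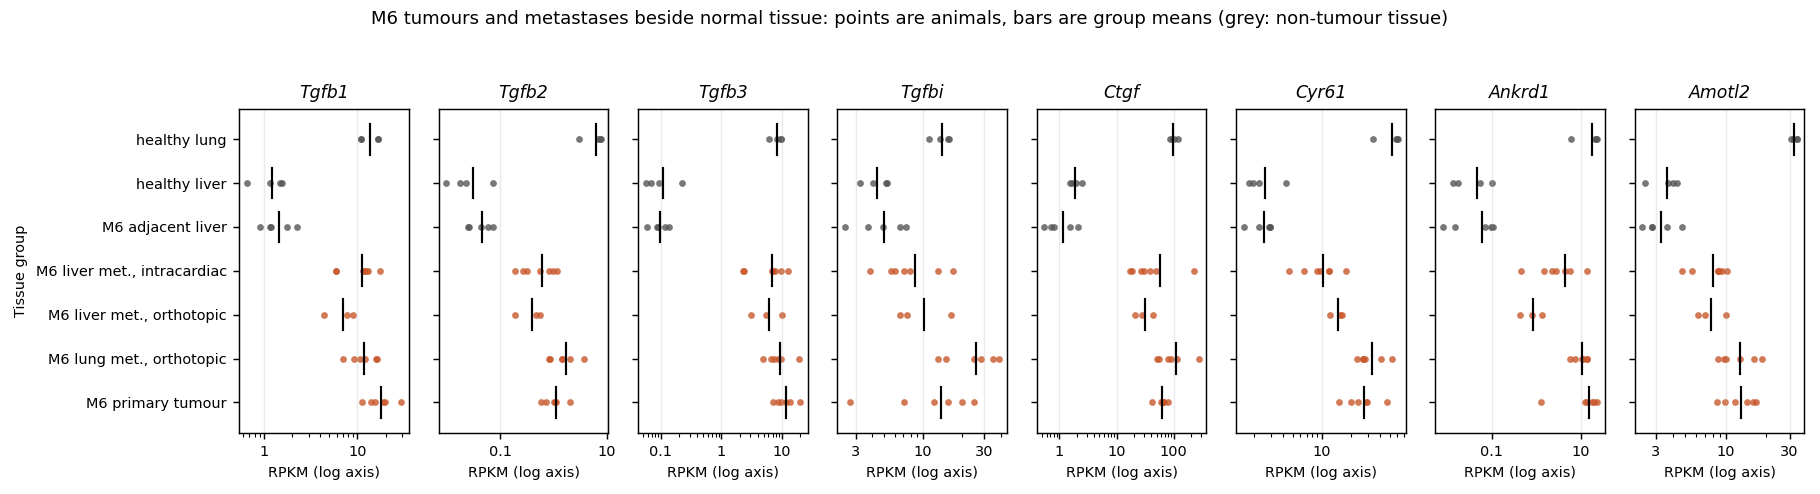
RPKM (log axis) of 8 genes in healthy lung and liver, adjacent liver, M6 liver metastases after intracardiac or orthotopic injection, M6 lung metastases and M6 tumours. Points are animals, and grey marks tissue without tumour. Tgfb3 is near 0 in adjacent liver (at most 0.136 RPKM), and healthy lung exceeds M6 tumours in Amotl2 and Tgfb2.

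The lung itself was compared between PyMT FVB mice (adjacent lung, n = 5) and healthy FVB mice (n = 4). Ctgf was lower in adjacent lung, at 69.8, 42.6, 62.7, 48.8 and 41.7 RPKM against 116, 87.0, 100.0 and 92.2, with no overlap. This was the 1 member called of 8 (-0.91 ± 0.17, adjusted p = 0.00983), beside 13.6% of all genes (10.0% lower). Ankrd1 was 34.9 ± 15.3 against 17.9 ± 7.93 and was not called. Cardiac muscle markers summed to 15.5 to 463 RPKM in adjacent and 5.52 to 26.8 in healthy lung, and Ankrd1 is known as a cardiac gene. Whether heart tissue bears on its level was not tested. The adjacent lungs carry library codes starting with RNA and the healthy lungs codes starting with KS, so tissue and code cannot be told apart.

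Smaller groups are given as values without a test. In 2 M6 spleen metastases Tgfb1 was 27.2 and 40.4 RPKM and Ankrd1 0.725 and 0.843. Spleen beside Met1 metastases had Tgfb1 at 28.7 and 32.7, while Ankrd1 was at most 0.169 there. In 3 M6 liver metastases after orthotopic injection, Ankrd1 was 0.428, 0.802 and 1.31, Cyr61 12.1 to 16.3 and Ctgf 21.0 to 43.3. Met1 tumours that had been resected (n = 4) held Cyr61 at 164, 95.1, 81.5 and 173, above all 7 other Met1 tumours (26.6 to 75.3), and Ankrd1 at 1.21, 1.27, 0.512 and 16.0. The 4 animals with resected tumours are also among the 7 animals with other Met1 tumours, and the values were not paired.

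Lung metastases seeded through the tail vein were sampled in 4T1, Mvt1, 6DT1 (2 animals) and Met1 (1 library, with lung markers at the level of healthy lung). In 4T1 (n = 6) Tgfb1 was at 8.90, 11.6 and 15.5 RPKM, Tgfb3 at 16.3, 21.5 and 27.7 and Tgfbi at 25.1, 33.5 and 84.5, with Ankrd1 at 45.5, 66.9 and 74.6. The Mvt1 tail vein libraries are titled Met1 and were taken as Mvt1 by their cell line entry. In Mvt1 (n = 6) Tgfb1 was at 14.6, 20.7 and 24.6 and Tgfb3 at 8.53, 11.1 and 12.7. Each of these ranges overlapped that of the orthotopic metastases of the same line, which for Tgfbi in 4T1 rested on metastasis 5 (84.5). The other 5 were at 25.1 to 39.4, below the lowest orthotopic metastasis (46.0). In the 6DT1 animals Tgfb1 was 19.6 and 15.6, Tgfb3 12.0 and 9.94, Tgfbi 34.6 and 23.5, and Ankrd1 13.1 and 8.58. In the 2 MMTV-Neu animals with both tissues, Tgfb3 was 106 and 22.1 in tumours and 59.4 and 62.1 in metastases, in the opposite direction in each.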

How the data were processed

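Total RNA from tumours, metastases, adjacent and healthy tissue and cultured lines was sequenced with TruSeq chemistry on the HiSeq2500, per the labels' protocols, which also say that tissue RNA passed a clean-up kit and culture RNA did not. The authors deposited 1 table of RPKM for all libraries. TopHat, DESeq2 and the build mm9 are named in the submitters' processing notes, without versions, and how the tools were combined, the counting and its use of strand are not given in the sources used here. The RPKM values are whole multiples of 1 read to within 0.01 reads, from which the depth was recovered.

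Libraries of the same tissue and animal were averaged, and log2(RPKM + 1) was taken. Each of 23 comparisons, and an F test over the models, was fitted with limma 3.58.1 in R 4.3.3 (trend and robust empirical Bayes) over all genes with at least 1 RPKM in as many profiles as the smaller group, with Benjamini-Hochberg adjustment over those genes and a threshold of 0.05. A count test was not used. The deposited values are normalized, and the read numbers recovered from them served only to describe depth. Metastases were paired with the tumour of the same animal by the labels, and culture with tumour by line, as a block in the fit. Same-animal libraries correlated above 0.1 (deviations from group means) in 4 of 6 animals in 4T1, 2 of 6 in Mvt1 and 6 of 7 in CAST, for example. In the shared comparison each model gave 1 mean difference. The lung share of a metastasis was estimated from 7 lung epithelial markers against healthy lung and held to at most 0.95 of a library, a bound reached by mouse9716. Values below 0 after its subtraction were set to 0. Promoter entries are from RefSeq (GRCm38.p6). Beside the members, 18 lists with 120 genes were followed, 5 of which were in the table under another symbol. From each list up to 3 called genes with the smallest adjusted p were named, together with up to 3 of the genes most like each member. Alternatives were a pseudocount of 0.1, no filter, libraries rescaled to their median ratio, no block, leaving out each animal, line or model, subtraction of the lung share and single library codes. Leaving out the FVB animal with mostly lung RNA, and keeping only RNA codes for MMTV-Myc, were chosen after seeing the data. Where labels of a library conflicted, its tissue entry, cell line entry or title was followed. The tissue entry was followed for a Met1 tumour and some MOLF tumours that are titled lung metastasis. The cell line entry was followed for the Mvt1 tail vein metastases, which are titled Met1. The title was followed for an FVB tumour with a MOLF strain entry. 1 gene of the lists is not reported here. The fits were tested on simulated data. The members and lists were chosen with earlier results of these data known. Figures were drawn with matplotlib 3.10.9 in Python 3.11.15.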

Additional observations from a re-analysis of the deposited data

Results flagged for a closer look

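Of 312 combinations of a member with a group of 4 to 10 profiles, 26 held 1 profile set apart from the rest of its group, judged by the gap to its nearest neighbour as a share of the group's whole range (Dixon's ratio). Ratios were taken on log2(RPKM + 1), while the values printed beside them are RPKM. Chance gives about 1 in 20 such profiles. Ankrd1 gave 9 of the 26. Its ratio was 0.967 for the second isolation of cultured 4T1 (94.0 RPKM, others 136 to 138), 0.894 for E0771 tumour PT1-1 (3.90, others 1.17 to 1.37), 0.833 for resected Met1 tumour 3 (16.0, others 0.512 to 1.27) and 0.745 for Met1 lung metastasis 9 (6.67, others 1.28 to 2.11). It was 0.748 for M6 tumour M6_820 (1.29, others 12.5 to 23.6) and 0.62 for metastasis CAST_10073 (2.87, others 0.340 to 1.00). In the BL6 animal PT_9780 both the tumour (3.55, others 0.418 to 0.820, ratio 0.786) and the lung metastasis (17.7, others 0.389 to 2.60, ratio 0.633) were high.

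Healthy lung PF3 was low in 3 members at once, with Ankrd1 at 6.11 RPKM (others 20.7 to 22.7, ratio 0.926), Cyr61 at 33.5 (others 57.6 to 60.8, ratio 0.908) and Tgfb2 at 3.07 (others 6.80 to 7.75, ratio 0.851). It had the highest sum of lung epithelial markers of the 4 healthy lungs.

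Among the ligands, Tgfb2 stood apart in 4T07 tumour 2 (0.876 RPKM, others 0.0259 to 0.182, ratio 0.765), 67NR tumour 1 (0.654, others 0.0771 to 0.218, ratio 0.714) and Mvt1 tumour 5 (1.35, others 0.554 to 0.736, ratio 0.731). Tgfb1 did so in Mvt1 metastasis 5 (29.4, others 15.4 to 19.3, ratio 0.651) and MMTV-Myc tumour mouse12358 (1.5, others 6.24 to 12.6, ratio 0.629), and Tgfb3 in metastasis CAST_10131 (21.0, others 41.0 to 59.1, ratio 0.643). Tgfbi was high in 4T1 tail vein metastasis 5 (84.5, others 25.1 to 39.4, ratio 0.63) and BL10 metastasis mouse9788 (29.4, others 6.47 to 11.4, ratio 0.639).

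Ctgf was high in M6 intracardiac liver metastasis 1 (226 RPKM, others 16.9 to 48.1, ratio 0.603) and low in 6DT1 tumour 0 (5.43, others 17.4 to 30.7, ratio 0.66). Cyr61 was high in 4T07 tumour 2 (82.2, others 24.8 to 37.2, ratio 0.665) and metastasis MOLF_10043 (32.9, others 9.65 to 16.7, ratio 0.561) and low in D2A1 tumour PT3 (49.0, others 71.2 to 73.1, ratio 0.935). Amotl2 was low in EMT6 tumour PT2 (12.2, others 15.5 to 16.2, ratio 0.846) and high in tumour MOLF_9878, the library with muscle markers (9.03, others 2.66 to 4.62, ratio 0.574). Between models, the metastasis minus tumour difference of Tgfb1 varied (limma F test, adjusted p = 0.0208).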

How the results depend on the processing

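For the member differences that were called, and all 8 in the shared comparison, 814 values were computed under alternatives, of which 737 kept direction and side of the threshold, 61 lost the threshold, 8 newly passed it and 8 changed sign. For 117 other differences that missed the threshold, 1736 values gave 23 past it and 111 of the other sign. Of 350 alternative counts of members called, 313 stayed within 1.5 times. The shares of all genes called under these alternatives are not given here, so the counts below have none to stand beside. The causes of the changes below were not tested. Without the replicate block (no pairing of tissues by animal and model) limma called 0 members in the shared comparison (0 at an unadjusted p under 0.05), with Tgfb1 at -0.48, Tgfb3 at -0.58 and Tgfbi at 0.56 and adjusted p from 0.742 to 0.897. Subtracting the lung share, with values below 0 set to 0, gave 1 called member in 4T1, 5 in 6DT1 (Amotl2 at -1.92), 5 in Mvt1, 2 in MOLF and 6 in the shared comparison. There Tgfb2 was at -0.11, Ctgf at -1.42, Ankrd1 at -0.20, Amotl2 at -1.43, Acvrl1 at -2.05, Eng at -2.41 and Id1 at -1.17. Without the filter on low values 1 member was called in FVB metastases, 0 in CAST (2 unadjusted) and 2 in M6 liver against tumour. With rescaled libraries 0 were called in CAST (2 unadjusted), 1 in M6 liver against tumour and 4 in M6 liver against adjacent liver (Tgfbi at -0.59, Amotl2 at -0.15). Within KS codes 0 were called for BL6 (2 unadjusted), 0 for CAST (4 unadjusted) and 1 for MOLF against FVB.

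Leaving out 1 animal or model at a time gave 1 to 2 called members in 4T1, 0 to 1 in BL10 (1 without animal PT_9786), 0 to 2 in CAST, 3 to 5 in the shared comparison (Amotl2 there from -0.017 to 0.080), 1 to 2 in BL6 and in CAST against FVB, and 1 to 5 in M6 liver against tumour (1 without tumour M6_823). Rescaling moved the share of all calls that were higher from 60.75% to 44.23% in 4T1, 77.5% to 59.79% in M6, 66.67% to 84.07% in FVB, 29.11% to 46.61% in CAST and 37.6% to 48.92% in the shared comparison. Against FVB it went from 42.38% to 59.97% in BL6, 33.3% to 48.74% in MOLF and 33.6% to 49.96% in MMTV-Myc. It went from 26.89% to 54.11% in M6 liver against tumour, 87.86% to 50.67% against adjacent liver and 26.42% to 45.83% in adjacent lung. Depth limits Ankrd1 and Tgfb2 most, with fewer than 10 reads in 19 and 12 libraries.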
